A study of Mus musculus with 17 samples.

Results

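The interferon-inducible GTPases described here were 10 genes of the mouse, Gbp2, Gbp3, Gbp4, Gbp5 and Gbp7 of the guanylate-binding protein (GBP) family and Iigp1, Irgm1, Irgm2, Igtp and Tgtp1 of the immunity-related GTPase (IRG) family. They were chosen by symbol from the 45777 genes of the count table, and all 10 passed the filter on low counts. Left lungs of male wild-type C57BL/6 mice, 6 weeks old before an acclimatisation period, received a single focal dose of 65 Gy or 75 Gy from an image-guided small-animal irradiator, and RNA was taken from the irradiated lesion for RNA sequencing. Tissue was collected 2 weeks later, which the study treats as the inflammation stage, or 6 weeks later, the fibrosis stage, beside non-irradiated controls of each time. Of the 17 libraries, 3 were controls, 3 were 65 Gy and 3 were 75 Gy at 2 weeks, and 3 were controls, 2 were 65 Gy and 3 were 75 Gy at 6 weeks. Each library is called by the number in its label, 3126 to 3143. All mice shared strain, sex and genotype. The labels do not say whether each library came from a separate mouse, so p-values measure the spread between these libraries.

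GBP and IRG proteins are GTPases of cell-autonomous immunity. Interferon gamma binds its receptor, Ifngr1 with Ifngr2, the kinases Jak1 and Jak2 pass the signal on, and GTPase genes are turned on through gamma-activated sites, while interferon regulatory factors and the type I interferon complex act through interferon-stimulated response elements. GBPs gather on pathogen vacuoles and on bacteria in the cytosol and help to open them to inflammasome caspases. IRGs fall into effectors that load onto vacuole membranes, such as Iigp1 and Tgtp1, and the regulators Irgm1, Irgm2 and Igtp, which sit on host membranes and keep effectors inactive there. In lung these genes are expressed in macrophages, lymphocytes, endothelium and epithelium, so that in bulk tissue fewer cells of a type and less RNA per cell cannot be told apart.

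The members lay in families of neighbours in GRCm38.p6, the build of the files. Gbp5, Gbp7, Gbp3 and Gbp2 stood in that order on chr3:142496934-142638008, with Gbp2b between Gbp3 and Gbp2, and Gbp4 lay at chr5:105115767-105139586. Irgm1 (chr11:48865245-48871420) and Tgtp1 (chr11:48985329-48992246) belonged to one group of IRG genes, and Igtp (chr11:58199556-58207592) and Irgm2 (chr11:58214977-58222783) stood next to each other in another. Promoters of 8 of the 10 members, all but Gbp4 and Iigp1, were in the RefSeq promoter table of the same build, each running from 250 bases before to 50 bases after the start of transcription. They were searched on both strands for TTCNNNGAA, the letters of a gamma-activated site, and for GAAANNGAA, a core of the interferon-stimulated response element. GAAANNGAA was found for 8 of 8 members, against 9.76% of 27025 genes with a promoter of 300 bases, and TTCNNNGAA for 5 of 8, against 9.55% of those genes. A match describes letters in a window and is not a bound site. The 41 bases around a GAAANNGAA match are shown because this sequence was the one all 8 promoters shared. The capitals mark the match, read on the strand of the gene, so that a run starting with TTC is the same motif on the opposite strand.

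Gbp5, chr3:142496754-142496794 (+): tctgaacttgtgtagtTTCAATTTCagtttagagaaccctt
Gbp7, chr3:142530268-142530308 (+): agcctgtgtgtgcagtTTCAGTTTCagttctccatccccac
Gbp3, chr3:142559984-142560024 (+): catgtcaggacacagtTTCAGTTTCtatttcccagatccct
Gbp2, chr3:142620589-142620629 (+): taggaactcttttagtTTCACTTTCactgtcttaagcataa
Irgm1, chr11:48871420-48871460 (-): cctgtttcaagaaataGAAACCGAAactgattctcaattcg
Tgtp1, chr11:48992299-48992339 (-): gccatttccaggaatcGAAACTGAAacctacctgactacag
Igtp, chr11:58199506-58199546 (+): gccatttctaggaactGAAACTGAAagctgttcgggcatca
Irgm2, chr11:58214897-58214937 (+): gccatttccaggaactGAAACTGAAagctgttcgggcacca

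In the promoters of all 4 GBP members the match lay on the opposite strand and in those of all 4 IRG members on the strand of the gene. It began 164 bases before the start in Gbp5 and between 24 and 77 bases before it in the other 7. Outside the members, the IRG gene Gm12250 had matches on the opposite strand, 90 and 45 bases before its start. The IRG genes Tgtp2 and 9930111J21Rik1 had theirs on the strand of the gene. Gbp3 had a second match 38 bases before the start, overlapping the first, and a second promoter entry without one. Irgm1 had a second match 30 bases before its start. TTCNNNGAA lay 245 and 52 bases before the start of Gbp5, 106 and 87 before Gbp7, 88 before Tgtp1, 45 before Igtp and 75 before Irgm2, and 0 of these 7 matches overlapped a GAAANNGAA match. In Tgtp1, Igtp and Irgm2 the TTCNNNGAA match stood the same 11 bases ahead of the capitals.

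The promoters of the neighbours Igtp and Irgm2 were the most alike among the 8 members and Tgtp2, the genes compared, at 73.5% identity over the alignment of the 300 bases, followed by Tgtp1 and its paralog Tgtp2 at 67.7% and by Irgm1 and Igtp at 53.9%. Both are shown whole because these 2 genes were the members called lower between the times below. The capitals mark the same GAAANNGAA match.

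Igtp, chr11:58199306-58199605 (+): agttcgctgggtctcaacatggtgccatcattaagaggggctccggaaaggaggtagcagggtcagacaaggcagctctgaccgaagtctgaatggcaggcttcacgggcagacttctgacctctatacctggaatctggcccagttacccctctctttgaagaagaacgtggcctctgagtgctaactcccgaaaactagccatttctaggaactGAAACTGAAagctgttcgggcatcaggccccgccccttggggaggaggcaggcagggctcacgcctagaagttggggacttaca
Irgm2, chr11:58214727-58215026 (+): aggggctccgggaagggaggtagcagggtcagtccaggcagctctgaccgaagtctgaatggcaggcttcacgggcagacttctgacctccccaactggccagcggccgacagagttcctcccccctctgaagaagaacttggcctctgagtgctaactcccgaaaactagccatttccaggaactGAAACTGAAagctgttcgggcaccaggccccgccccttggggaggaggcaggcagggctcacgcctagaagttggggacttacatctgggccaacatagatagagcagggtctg

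Libraries held 46764569 to 66797879 counts, and the 10 genes together 24052 to 97796 of them, with 761 to 17948 counts for a single gene in a library, so counting error was small beside the spread between libraries. Levels are given as CPM, the counts of a gene relative to its library's total after TMM scaling. Library 3134 of the 75 Gy 2-week group stood apart. Its level of each member was 1.89 (Irgm2) to 3.04 (Gbp5) times the mean of the other 2 libraries of its group, with a median of 2.36 over the members against 0.997 over all genes tested. A ratio as high as the lowest of the members was found for 7.20% of all genes. The same library held the most monocyte and macrophage marker RNA, a summed level of 1747 CPM over 8 genes against 802 and 921 in its group and 395 to 512 in the 2-week controls, the most T cell marker RNA, 161 CPM against 67.1 and 84.9, and the least capillary endothelium marker RNA, 1454 CPM against 2644 and 2337. None of the 8 genes of any of these 3 lists was at 0 in all libraries, and the part of these cells in the GTPase levels was not tested. Alveolar epithelium markers, which define lung, summed to 16345 to 31407 CPM, and library 3134 held the lowest sum. It also held the lowest airway epithelium sum of all libraries, 6710 CPM against 14043.5 and 12667.5 in its group. Its B cell sum was the lowest (97.6 CPM) and its thymocyte sum the highest (46.4 CPM). Its NK cell, neutrophil and fibroblast sums lay within the range of the other libraries. The part of these further lists in the GTPase levels was not tested either. Calls and differences that rest on library 3134 are therefore given with and without it.

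Compared per length, as CPM per kilobase of exon, Gbp2 was the most abundant member in both control groups, at 33.7 ± 1.94 (SD, n = 3) at 2 weeks and 34.1 ± 6.76 (n = 3) at 6 weeks, and its libraries stood above those of the next gene. Gbp5 was the least abundant at 2 weeks, 5.83 ± 0.673, below every library of Tgtp1, the next. The 7 genes from Iigp1 (19.3 ± 1.33) down to Gbp3 (12.3 ± 1.5) each overlapped their neighbour in the order. In the 75 Gy libraries of 2 weeks Gbp2 (69.7 ± 48.3), Iigp1 (62.7 ± 29.5) and Irgm1 (44.8 ± 25.9) led, all with overlapping ranges. Iigp1 came first only at 6 weeks after 75 Gy, with 43.7 ± 12.7 where Gbp2 had 39.7 ± 9.02, and the ranges of these 2 overlapped as well.

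**Figure D1:**
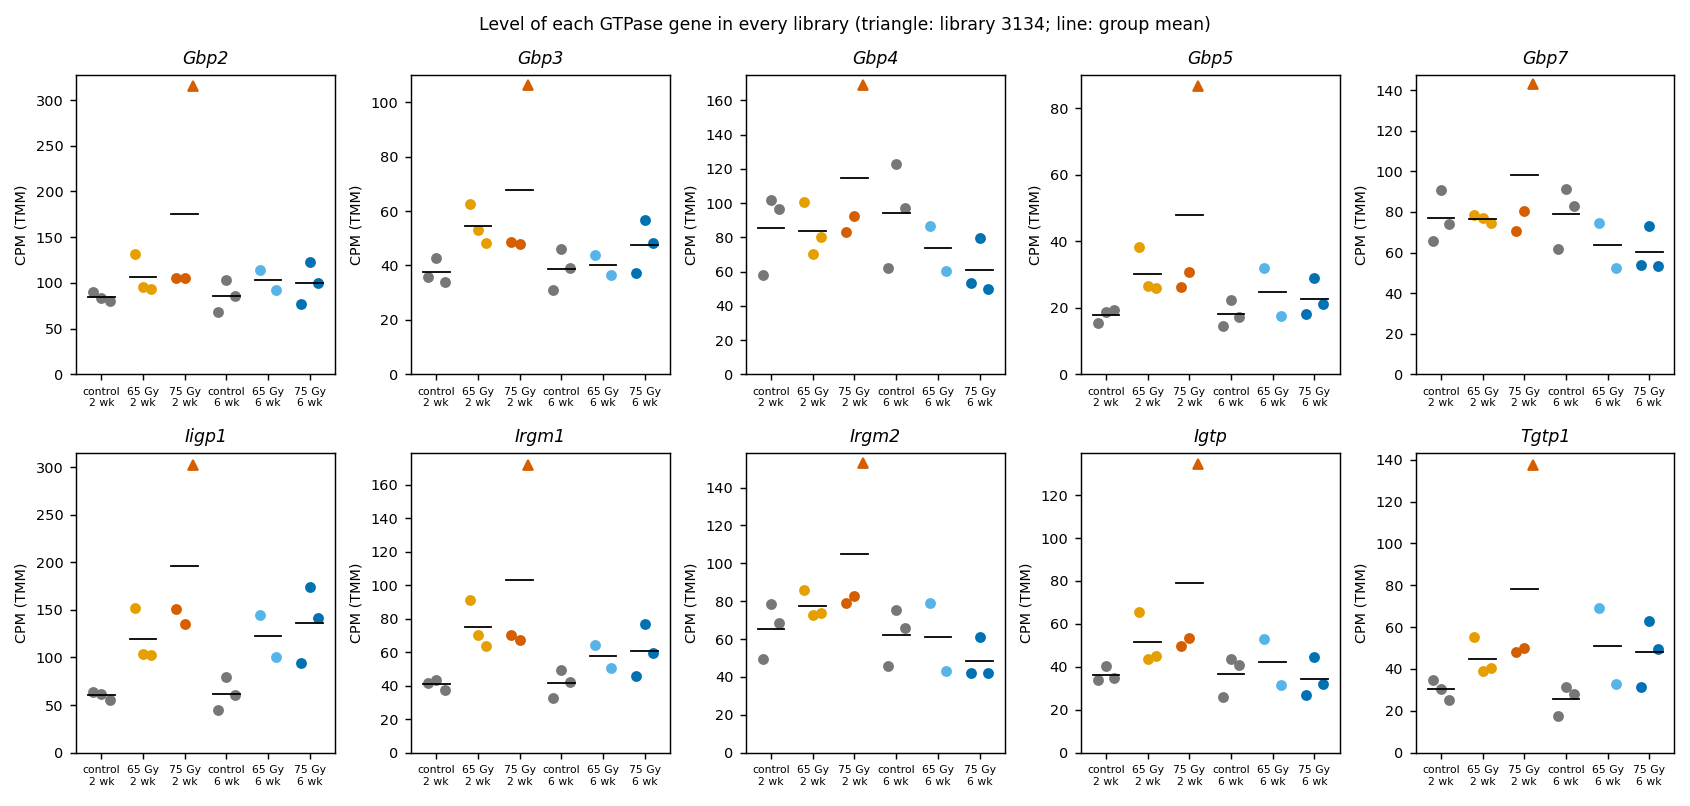
Level of each of the 10 GTPase genes in every library, in CPM (y axis, from 0), by group (x axis); points are libraries, lines are group means and the triangle is library 3134. The triangle is the highest point of all 17 libraries in each panel, and in the Iigp1 panel the 11 irradiated libraries, lowest at 94.7 CPM, lie above the 6 controls, highest at 79.9 CPM.

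At 2 weeks after 75 Gy, 6 of the 10 genes rose at least 2-fold over controls of the same time, Iigp1, Gbp5, Tgtp1, Irgm1, Igtp and Gbp2, where 5.67% of all genes tested were called higher. To be called, a gene needed an adjusted p no higher than 0.05 together with a log2 change of 1 or more in size, in the quasi-likelihood test of edgeR with Benjamini-Hochberg adjustment over 22052 genes. Counts of genes at an unadjusted p under 0.05 are also given below, but the share of all genes at that limit is not. None of the 10 was called lower, and all 10 fold changes were above 0. The median log2 fold change was 1.09 against 0.00084 for all genes. In 8 of 10 genes every irradiated library lay above every control, against 15.5% of all genes. Without library 3134 only Iigp1 of the 10 was called, where 3.85% of 21953 genes were called higher, and the median fell to 0.43. Gbp2 and Igtp were also not called without control library 3126, 3127 or 3128, nor Tgtp1 without 3127 or 3128, and a fit of only the groups compared called 1 gene, Iigp1.

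Iigp1, an effector IRG that coats pathogen vacuoles, showed the largest change of the 10. Its level was 63.3, 61.9 and 55.5 CPM in the 2-week controls and 151, 135 and 302 CPM after 75 Gy. The lowest irradiated library held more than 2 times the highest control. The log2 fold change was 1.70 ± 0.31 (SE; Benjamini-Hochberg adjusted p = 0.0013 in edgeR), and without library 3134 it was 1.25 (adjusted p = 0.0049).

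Tgtp1, the other effector IRG among the members, had 34.9, 30.5 and 25.1 CPM in controls and 47.8, 50.1 and 137 CPM after 75 Gy. The groups did not overlap, and 1 library stood far above the other 2. The log2 fold change of 1.38 ± 0.39 (adjusted p = 0.021, edgeR) became 0.70 and was no longer called without that library. Tgtp1 shares near-identical stretches with its paralog Tgtp2, so how reads were split between them is uncertain. Tgtp2 had a log2 fold change of 0.87 (adjusted p = 0.094) and was not called.

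Of the regulators, Irgm1, which guards host membranes and lysosome function, had 41.6, 43.5 and 37.6 CPM in controls and 70.3, 67.1 and 172 CPM after 75 Gy. Every irradiated library was above the controls. Its log2 fold change was 1.33 ± 0.30 (adjusted p = 0.0058, edgeR), and without library 3134 it was 0.75 with an adjusted p of 0.025, below the fold limit. Igtp, also named Irgm3, had 33.96, 40.5 and 34.7 CPM in controls and 49.6, 53.5 and 134 CPM after 75 Gy. The log2 fold change was 1.12 ± 0.34 (adjusted p = 0.029, edgeR) with all libraries and 0.50, not called, without 3134. Irgm2, which curbs caspase activation by bacterial lipopolysaccharide, had 49.5, 78.5 and 68.4 CPM in controls and 79.0, 82.8 and 153 CPM after 75 Gy. Its groups were apart by less than 1 CPM, and it was not called (log2 fold change 0.68, adjusted p = 0.097).

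Among the GBPs, Gbp5, which promotes inflammasome assembly, had 15.4, 18.8 and 19.2 CPM in controls and 26.2, 30.7 and 86.5 CPM after 75 Gy. Its log2 fold change was 1.42 ± 0.38 (adjusted p = 0.013, edgeR), and 0.68 without library 3134, not called. Gbp2, which gathers on parasite vacuoles, had 89.9, 83.8 and 80.3 CPM in controls and 105, 106 and 316 CPM after 75 Gy. All 3 irradiated libraries were above the controls, but 2 of them by a small margin. Its log2 fold change of 1.05 ± 0.34 (adjusted p = 0.035, edgeR) became 0.31 (adjusted p = 0.32) without library 3134. Gbp3 had 35.6, 42.7 and 34.04 CPM against 48.6, 47.8 and 106 CPM, and its log2 fold change of 0.85 (adjusted p = 0.029) stayed under the fold limit. Gbp4 (0.42, adjusted p = 0.36) and Gbp7 (0.35, adjusted p = 0.31), which takes part in NADPH oxidase assembly, were not called and their groups overlapped. In Gbp4 the controls ranged from 58.3 to 102 CPM and the irradiated libraries from 83.1 to 169 CPM.

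**Figure D2:**
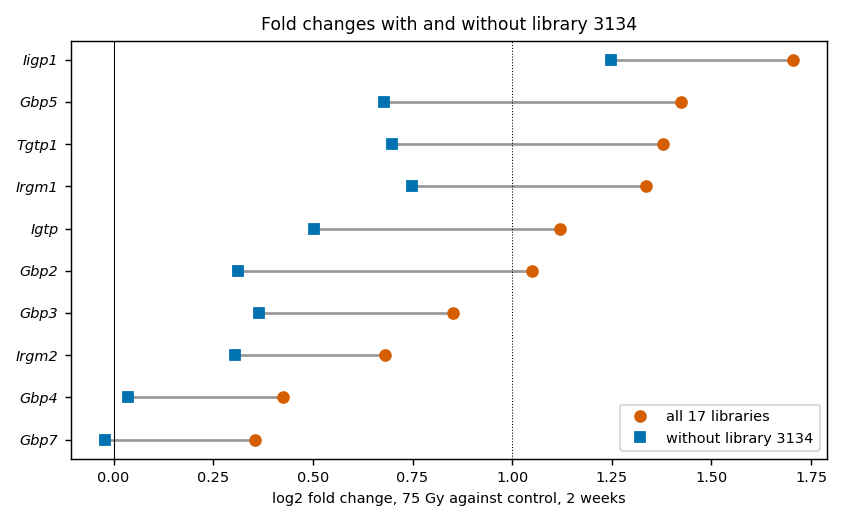
Log2 fold change of each GTPase gene at 2 weeks after 75 Gy against controls (x axis), with all 17 libraries (circles) and without library 3134 (squares). Every gene's value is lower without the library; Iigp1 falls from 1.70 to 1.25 and stays past the limit of 1, and Gbp7 falls from 0.35 to -0.021.

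At 2 weeks after 65 Gy none of the 10 genes was called by edgeR or by DESeq2, 2 (Iigp1 and Irgm1) had an unadjusted p under 0.05, and 3.47% of all genes were called higher. Of the 10, 7 genes had every irradiated library above every control, against 15.9% of all genes, and the median log2 fold change was 0.52. Iigp1 had 152, 104 and 103 CPM, all above its controls, with a log2 fold change of 0.99 ± 0.30 (adjusted p = 0.049, edgeR), which misses the fold limit of 1 narrowly. Irgm1 had 90.9, 70.3 and 63.7 CPM and a log2 fold change of 0.87 (adjusted p = 0.077). Gbp5 had 38.3, 26.5 and 25.8 CPM and a log2 fold change of 0.76 (adjusted p = 0.22). In all 3 genes library 3129 was the highest of its group. The other values lay between 0.57 for Tgtp1 and -0.031 for Gbp4.

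The direct comparison of the doses at 2 weeks called none of the 10 genes and none of the 22052 tested (0%), while DESeq2 called 7 genes, none of them a member. All 10 members had a higher mean after 75 Gy, by a log2 difference of 0.31 (Gbp3) to 0.81 (Tgtp1), and 2 had an unadjusted p under 0.05, Gbp2 (0.72, 95% interval 0.0049 to 1.43) and Iigp1 (0.72, 0.077 to 1.36), both with an adjusted p of 0.69. In every member the ranges of both doses overlapped. Without library 3134, 5 of the 10 differences were above 0 and 5 below, from -0.18 (Gbp3) to 0.26 (Iigp1), and 0 had an unadjusted p under 0.05 in edgeR. For Tgtp1 the interval of the difference ran from -0.023 to 1.64, so these data neither separate the doses nor show them alike. At 6 weeks the doses again gave 0 called members, 0 at an unadjusted p under 0.05 and 0 of all genes (0%) in edgeR, with 14 genes in DESeq2, none a member, and log2 differences of -0.34 to 0.24.

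At 6 weeks after 75 Gy, Iigp1 alone of the 10 was called higher, where 7.28% of all genes were. It had 44.8, 79.9 and 60.2 CPM in the 6-week controls and 94.7, 174 and 141 CPM after 75 Gy, with no overlap. Iigp1 was the only member without overlap, against 29.4% of all genes. Its log2 fold change was 1.15 ± 0.30 (adjusted p = 0.0087, edgeR). It fell to 0.96 without library 3135 and to 0.94 without library 3142, past the adjusted p in both cases and short of the fold limit. Tgtp1 followed with 31.4, 62.7 and 49.5 CPM against 17.5, 31.5 and 28.1 CPM and a log2 fold change of 0.90 (adjusted p = 0.087). Without library 3141 its log2 fold change was 1.12 and it was called.

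The remaining members spread to both sides of 0 at this time, and the median of the 10 was 0.26. Irgm1 (0.55), Gbp5 (0.33), Gbp3 (0.29) and Gbp2 (0.22) had positive log2 fold changes, and Igtp (-0.092), Irgm2 (-0.36), Gbp7 (-0.39) and Gbp4 (-0.62) negative ones, all with an adjusted p of at least 0.128 and overlapping groups. Gbp4 had 53.3, 79.7 and 50.1 CPM after 75 Gy against 62.0, 123 and 97.2 CPM in controls. Among all genes tested 3.13% were called lower, and none of the members was.

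At 6 weeks after 65 Gy, with 2 libraries, none of the 10 was called by edgeR or DESeq2, 2 had an unadjusted p under 0.05, Iigp1 and Tgtp1, and 4.34% of all genes were called higher. Iigp1 had 145 and 100 CPM and a log2 fold change of 0.99 ± 0.33 (adjusted p = 0.057, edgeR), and it was called without library 3132 or 3141 of other groups. Tgtp1 had 69.1 and 32.8 CPM and a log2 fold change of 0.99 ± 0.43 (adjusted p = 0.14, edgeR). These 2 genes and Irgm1 (64.5 and 50.5 CPM) had both libraries above all controls, against 28.2% of all genes. In all 10 members library 3138 was higher than library 3140. The median over the 10 was 0.23.

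**Figure D3:**
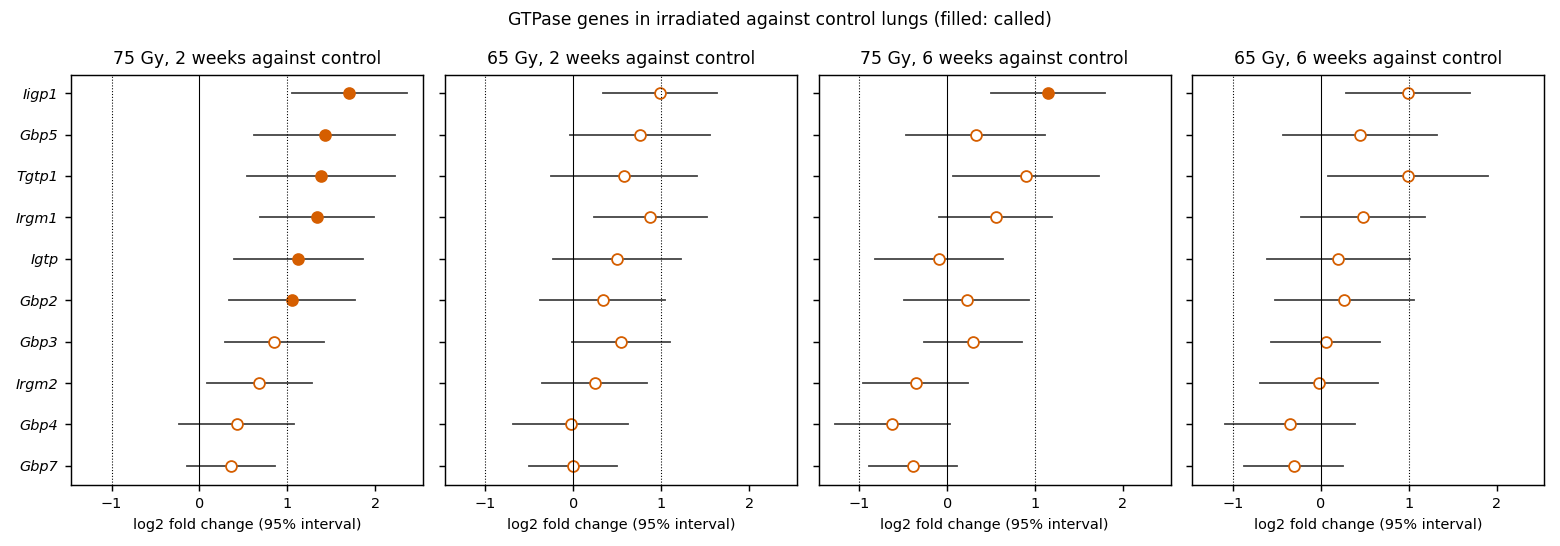
Log2 fold change (x axis) of each GTPase gene against controls of the same time, with its 95% interval, in one panel per dose and time; filled points are called. At 2 weeks after 75 Gy 6 genes are filled, at 6 weeks after 75 Gy only Iigp1, and none in the 65 Gy panels; the vertical dotted lines mark the fold limit.

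Between the 6-week and 2-week controls 0 of 10 members were called in edgeR or DESeq2, 0 had an unadjusted p under 0.05, and log2 differences ran from -0.23 to 0.14, where 0.576% of all genes were called. Between the times within 75 Gy, Irgm2 and Igtp were called lower at 6 weeks, where 0.834% of all genes were called lower. Irgm2 had 42.0, 61.2 and 42.3 CPM at 6 weeks against 79.0, 82.8 and 153 CPM at 2 weeks (log2 difference -1.11 ± 0.28, adjusted p = 0.023, edgeR). Igtp had 26.7, 44.7 and 32.1 CPM against 49.6, 53.5 and 134 CPM (-1.20 ± 0.34, adjusted p = 0.039, edgeR). These 2 genes and Gbp4 did not overlap between the times, against 13.6% of all genes. All 10 differences were below 0, and 7 had an unadjusted p under 0.05. Without library 3134 the difference was -0.74 for Irgm2 and -0.58 for Igtp, neither of them called. All 10 were then still below 0, but Gbp2 (-0.075), Iigp1 (-0.068), Tgtp1 (-0.033) and Gbp3 (-0.027) lay close to it, and 2 of 10 had an unadjusted p under 0.05. Neither gene was called without library 3141 or 3143 either. Within 65 Gy 0 of 10 were called between the times in edgeR or DESeq2, 0 had an unadjusted p under 0.05, and 0.34% of all genes were called.

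Whether the change against controls itself differed between the times was tested as an interaction. For 75 Gy, 0 of 10 members were called in edgeR or DESeq2, where 0.254% of all genes were, and 4 had an unadjusted p under 0.05. These were Igtp (-1.21), Gbp4 (-1.05), Irgm2 (-1.04) and Gbp7 (-0.75), with adjusted p-values of 0.233 to 0.289 in edgeR. For Iigp1 the difference was -0.55, with a 95% interval of -1.46 to 0.35. Without library 3134, 0 of 10 had an unadjusted p under 0.05 in edgeR, and the differences ran from -0.66 (Irgm2) to 0.20 (Tgtp1). For 65 Gy 0 of 10 were called in either tool, 0 had an unadjusted p under 0.05, and 0.0136% of all genes were called. The dose difference at 2 weeks minus that at 6 weeks gave 0 of 10 in either tool, 0 at an unadjusted p under 0.05, and 0% of all genes.

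Members differed in how far they moved within the same libraries. Iigp1 was the only one of the 10 with all 11 irradiated libraries above all 6 controls. The share of all genes with this trait was not computed. Gbp4, a GBP of chromosome 5, was the member least like Iigp1 over the 17 libraries, with a Pearson r of 0.312 in log2 CPM. Without library 3134 the member least like Iigp1 was Gbp7, with an r of -0.087. The pair of Iigp1 and Gbp4 was chosen for display after the values were seen. The ratio of Iigp1 to Gbp4 within a library does not depend on scaling. It was 0.576 to 1.09 in the 2-week controls and 0.620 to 0.722 in the 6-week controls. It was 1.28 to 1.51 and 1.46 to 1.82 at 2 weeks after 65 and 75 Gy, and 1.66 to 1.67 and 1.78 to 2.83 at 6 weeks. All irradiated libraries were above all controls, and library 3134, at 1.79, was not the highest. Irgm1 over Irgm2 was 0.550 to 0.840 in all controls and 0.810 to 1.41 in irradiated libraries, and these ranges met.

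**Figure D4:**
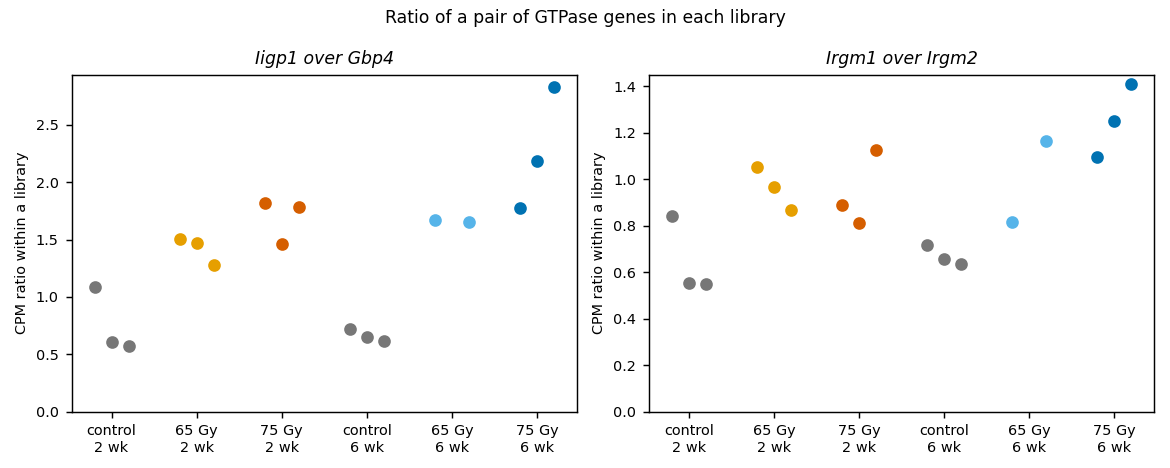
Ratio of a pair of GTPase genes within each library (y axis) by group (x axis), one point per library. The ratio of Iigp1 to Gbp4 is at most 1.09 in controls and at least 1.28 in irradiated libraries, while that of Irgm1 to Irgm2 overlaps between 0.810 and 0.840.

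Within groups the members varied together. As deviations from group means, the correlation between any 2 members was 0.737 to 0.989 over the 17 libraries, which share depth and scaling within a library. Over the libraries without centring, Gbp3 and Irgm1 (0.967) were close, as were Gbp4 and Gbp7 (0.938). The biological coefficient of variation, the relative spread between replicates, was 0.204 (Gbp7) to 0.329 (Tgtp1) in the members. Its median over all genes was 0.166. These values include library 3134, and none was computed without it. Outside the members, among the genes most like their mean over 17 libraries, of 14473 compared, were the IRG gene Gm12250 (r = 0.961, rho = 0.919), the GBP genes Gbp6 (0.921) and Gbp10 (0.916), the peptide transporter Tap1 (0.916), Tgtp2 (0.913), the IRG gene Ifi47 (0.903), Gbp11 (0.901), the MHC class I regulator Nlrc5 (0.896) and the suppressor Socs1 (0.894). Without library 3134 Gm12250 (0.914) was still the most alike, while Ifi47, Gbp11 and Nlrc5 fell to ranks 26, 34 and 46. By deviations from group means they included Gbp6 (0.980), the most alike, Gbp10, Gm12185, Gm12250, Gm4951, Tgtp2, the proteasome subunit Psmb9, Rtp4 and Tap1 (0.933). For single members the most alike gene was Ifi47 for Gbp2 (0.943), Gm12185 for Gbp4 (0.883), Gvin1 for Gbp7 (0.937) and Irgm2 (0.886), the immunoproteasome subunit Psmb8 for Iigp1 (0.959), Gm12250 for Irgm1 (0.956) and Igtp (0.940), and Tgtp2 for Tgtp1 (0.955).

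The 17 other listed genes were GBP and IRG genes and Gvin1, a very large interferon-inducible GTPase, with Gbp11 annotated as a transcribed pseudogene. All were tested, and 9 were called higher at 2 weeks after 75 Gy and none lower. The median log2 fold change of the 17 was 1.13, and 5.67% of all genes were called higher. The 9 called were Gm4841 (3.43), Gbp2b (2.67), Gm5431 (1.80), Gm12250 (1.65), F830016B08Rik (1.53), Gbp11 (1.49), Gbp8 (1.43), Gbp10 (1.35) and Gbp6 (1.13). Ifi47 (0.52) and Gm12185 (0.57), counted with the family around Irgm1 and Tgtp1 below, were not on this list and not called. Without library 3134 only Gm4841 (2.69) and Gm5431 (1.13) were called. The same 2 genes were called at 2 weeks after 65 Gy, Gm4841 at 2.46 and Gm5431 at 1.29. At 6 weeks Gm4841 (2.85 after 75 Gy, 2.48 after 65 Gy) and Gbp2b (3.02 and 2.41) were called at both doses, Gm5431 (1.07) at 75 Gy only, and the IRG gene 9930111J21Rik1 fell by 1.08 on the log2 scale after 75 Gy (adjusted p = 0.0034, edgeR). In 6 of the 17 genes every library at 6 weeks after 75 Gy lay below every control, against 27.7% of all genes.

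Gm4841, an IRG gene of low level, had 0.343 to 0.492 CPM in 2-week controls, 1.32 to 3.47 CPM after 65 Gy and 2.47 to 7.65 CPM after 75 Gy, and at 6 weeks 0.211 to 0.401 CPM in controls, 1.54 to 2.01 CPM after 65 Gy and 1.20 to 3.01 CPM after 75 Gy. Gm5431 had 3.17 to 4.49 CPM in all controls and 6.04 to 24.0 CPM in irradiated libraries. These 2 of the 17 genes, like Iigp1, had every irradiated library above every control. The share of all genes with this trait was not computed. Gbp2b, a GBP next to Gbp2, had 0.210 to 0.308 CPM in all controls and 1.44 to 3.47 CPM after either dose at 6 weeks. Gbp9 stood at the other end, with a log2 fold change of -0.0074 at 2 weeks after 75 Gy and -0.57 at 6 weeks (adjusted p = 0.0068, edgeR), under the fold limit. Irgc1, the germline IRG, and Irgq were called nowhere.

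**Figure D5:**
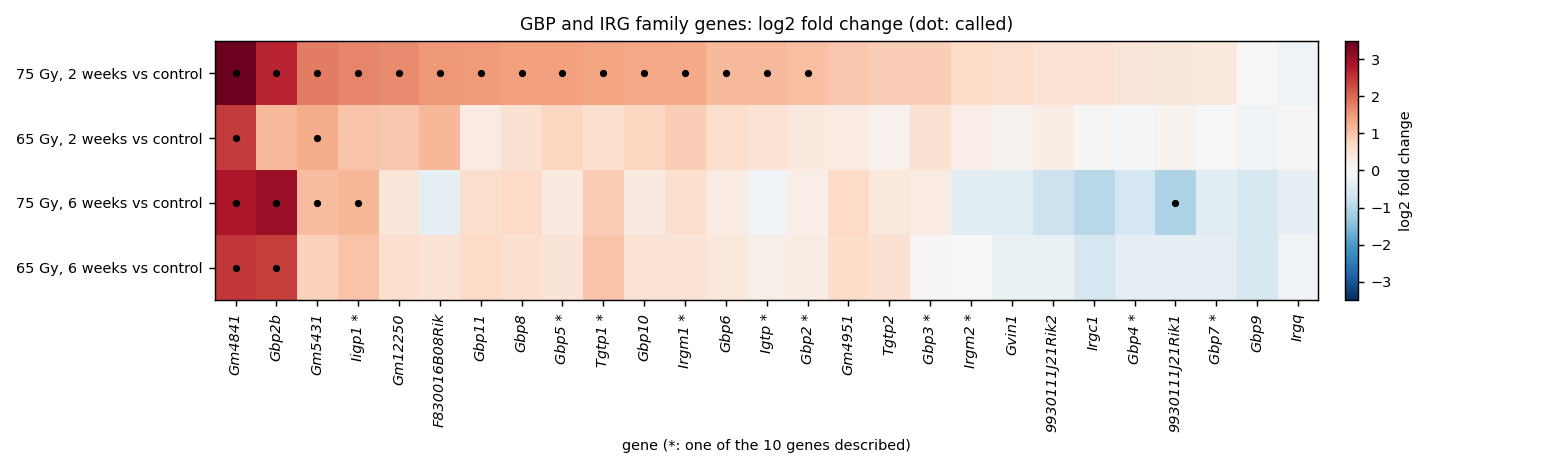
Log2 fold change (colour) of 27 genes, GBP and IRG genes with Gvin1, in 4 comparisons with controls (rows). Columns are genes, ordered by the 75 Gy 2-week value. An asterisk marks the 10 described here and a dot marks a called gene. The 75 Gy 2-week row holds 15 dots, Gm4841 is dotted in all 4 rows, and the 6-week rows turn blue in genes such as Gbp4 (-0.62) and Gbp9 (-0.57) at 75 Gy.

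Genes beside the families were compared with them. Within 200000 bases of the chromosome 3 cluster, 3 of 5 GBP genes and 0 of 4 other tested genes were called at 2 weeks after 75 Gy, with median log2 fold changes of 1.05 and -0.16. On chromosome 5 these were 4 of 6 (1.24) and 0 of 8 (0.21), around Irgm1 and Tgtp1 3 of 8 (0.72) and 1 of 15 (-0.065), and around Igtp and Irgm2 2 of 3 (1.12) and 0 of 10 (-0.058). The single called neighbour was Btnl9, which was lower (-1.49). Log2 fold changes of the neighbours ran from -0.31 to 0.067 on chromosome 3 and from -0.30 to 1.19 on chromosome 5. They ran from -1.49 to 3.01 around Irgm1 and Tgtp1, and from -0.25 to 2.035 around Igtp and Irgm2. The highest neighbour value at each place was not called. Without library 3134 the families gave 0 of 5, 0 of 6, 1 of 8 (Gm5431) and 0 of 3 calls in the same order, with medians of 0.37, 0.45, 0.31 and 0.50, and the medians of the neighbours were -0.13, 0.080, -0.098 and -0.10.

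Upstream of the GTPases, Ifng itself, the ligand of T and NK cells, was scarce, at 0.171 to 0.572 CPM in 2-week controls, 0.543, 0.709 and 1.62 CPM after 75 Gy, and 0.246 to 0.676 CPM in all 6-week libraries. Library 3134 again held the highest value. Its log2 fold change at 2 weeks after 75 Gy was 1.23 ± 0.46 (adjusted p = 0.067, edgeR), 0.63 without library 3134, and Ifng was called in none of the 4 dose comparisons. Of 10 listed ligands and ligand inducers 5 were tested, and Il12b, a subunit of the cytokines IL-12 and IL-23 that drive Ifng, was called in all 4 comparisons (log2 fold changes 2.24 and 2.52 at 2 weeks after 75 and 65 Gy, 2.95 and 2.25 at 6 weeks). NK cell markers, the other source, summed to 71.8 to 131 CPM in 2-week controls and 69.4 to 97.8 CPM after 75 Gy, and 0 of these 8 genes were called by edgeR there, with 1 at an unadjusted p under 0.05. Of the T cell markers only Icos, a costimulatory receptor, was called there (1.96, and 1.28 without library 3134).

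Of the receptor chains of interferon gamma, Ifngr1 was not called at 2 weeks after 75 Gy (log2 fold change -0.15, adjusted p = 0.32, edgeR), and Ifngr2 had 67.3 to 74.6 CPM in controls and 102 to 136 CPM after 75 Gy, a log2 fold change of 0.70 (adjusted p = 0.00028) under the fold limit. Of 7 interferon-induced transcription factors 4 were called at 2 weeks after 75 Gy, Irf7 (1.86), Nlrc5 (1.13), Ciita (1.02), the MHC class II regulator, and Irf8 (1.02), a myeloid factor. Without library 3134 only Irf7 was, at 1.07. Irf1, the factor that binds response elements of GBP genes, was not called (0.28, adjusted p = 0.29), with 115 to 124 CPM in controls and 120 to 197 CPM after 75 Gy. After 65 Gy Irf7 (1.73) was called at 2 weeks, and at 6 weeks none of the 7 was called by edgeR at either dose. At 6 weeks 2 had an unadjusted p under 0.05 after 75 Gy and 1 after 65 Gy. Irf2 was lower at both doses, by -0.62 after 75 Gy (adjusted p = 0.0016, edgeR) and -0.52 after 65 Gy (adjusted p = 0.023). Irf7 was higher after 75 Gy (0.94, adjusted p = 0.033).

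Of 7 negative regulators, Socs3 was called in all 4 comparisons (1.22 and 1.41 at 2 weeks after 75 and 65 Gy, 1.42 and 1.73 at 6 weeks), and Socs1, which blocks Jak kinases, at 2 weeks after 75 Gy only (1.87 ± 0.42, adjusted p = 0.0056, edgeR; 1.07 without library 3134, still called). Of 12 autophagy proteins that load or place the GTPases on membranes 0 were called in any of the 4 comparisons in edgeR. An unadjusted p under 0.05 was found for 7 and 5 of the 12 at 2 weeks after 75 and 65 Gy. At 6 weeks it was found for 4 and 3. Levels moved both ways at 2 weeks after 75 Gy. Gabarap had 206 to 223 CPM in controls and 277 to 349 CPM after 75 Gy, and Gabarapl1 137 to 155 CPM and 95.7 to 134 CPM. Atg5, the conjugation factor, had 26.0 to 27.7 CPM in 6-week controls and 41.1 to 46.3 CPM after 75 Gy (log2 fold change 0.70, adjusted p = 0.00071). Of 12 inflammasome and vacuole-lysis partners, Pycard, the inflammasome adaptor, and Zbp1, a nucleic acid sensor, were called at 2 weeks after 75 Gy (1.67 and 2.24) and 65 Gy (1.02 and 1.71). Without library 3134 the 75 Gy values were 1.34 and 1.41, both still called, and Il1b, an inflammasome product, was called lower (-1.45, adjusted p = 0.014, edgeR). At 6 weeks after 75 Gy 4 were called, Zbp1 (1.36), Casp1 (1.29), Casp4 (1.28), the sensor of cytosolic lipopolysaccharide, and Pycard (1.26). After 65 Gy 2 were, Pycard (1.17) and Casp1 (1.02).

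Genes of the type I interferon response, for comparison with the GTPases, were called higher in 12 of 12 at 2 weeks after 75 Gy, among them Mx1 (2.28) and Isg15 (2.02), and in 7 of 12 without library 3134. They were called in 7 of 12 at 2 weeks after 65 Gy. At 6 weeks 5 of 12 were called after 75 Gy and 4 of 12 after 65 Gy. Of the 10 GTPases, 6 were called at 2 weeks after 75 Gy, and 1 without library 3134. At 2 weeks after 65 Gy 0 were called, and at 6 weeks 1 after 75 Gy and 0 after 65 Gy. Of all genes, 5.67% and 3.47% were called higher at 2 weeks after 75 and 65 Gy, and 7.28% and 4.34% at 6 weeks. Without library 3134 the share at 2 weeks after 75 Gy was 3.85%. These shares stand beside the counts of the other pathway lists above as well. The difference between the type I genes and the GTPases was not tested.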

How the data were processed

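RNA sequencing of 17 lung libraries was analysed from the gene table the authors deposited, which holds raw counts per gene. RNA was extracted from irradiated lesions, with the RNeasy Mini kit per the labels and with QIAzol reagent per the study's methods. Libraries were made with a stranded TruSeq mRNA kit, and reads were trimmed with Trimmomatic, aligned with HISAT2 to GRCm38.p6 and assembled with StringTie. The step from there to whole counts is not given in the sources used here. Counts were fitted with edgeR 4.0.16 (R 4.3.3, limma 3.58.1) as 6 groups over 17 libraries, with TMM and filterByExpr (minimum count 10, minimum total 15), and the quasi-likelihood test with Benjamini-Hochberg adjustment. Calls needed an adjusted p no higher than 0.05 and a log2 change of 1 or more in size. DESeq2 1.42.0, other scalings, filters and leaving out each library were alternatives. Scripts were tested on simulated data. Likeness was computed on log2 CPM (prior count 2) for genes averaging at least 1 on that scale. Lengths were unions of exons from GENCODE and promoters came from RefSeq (GRCm38.p6).

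The members and the gene lists were chosen with earlier results of these data known. Named were all members, the other GBP and IRG genes, genes called in the pathway lists with Ifng, Ifngr1, Ifngr2, Irf1, Irf8, Socs1 and Atg5 always, the 10 genes most like the members by each measure and the gene most like each member. Some results under this rule are not reported here. Btnl9, Icos, Il1b and the ratio pairs were named after their values were seen. Libraries held 46764569 to 66797879 counts, 1 CPM being 46.8 counts in the smallest.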

Additional observations from a re-analysis of the deposited data

Results flagged for a closer look

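Of 98 genes of the family and pathway lists, 3 changed sides between the times. In these, all 75 Gy libraries lay above the controls at 2 weeks and below them at 6 weeks. Over all genes tested, 15.5% lay above the controls without overlap at 2 weeks after 75 Gy, and 27.7% below them at 6 weeks. The share of all genes doing both was not computed. F830016B08Rik, an IRG gene, had 4.40 to 5.74 CPM in controls and 8.76 to 23.8 CPM after 75 Gy at 2 weeks, then 4.63 to 5.37 CPM and 3.25 to 4.38 CPM at 6 weeks. The 6-week effect minus the 2-week effect was -1.87 on the log2 scale (unadjusted p = 0.0037, adjusted p = 0.15, edgeR). Its IRG relative 9930111J21Rik2 had 8.30 to 11.1 CPM and 11.9 to 18.4 CPM at 2 weeks, then 10.3 to 13.2 CPM and 5.64 to 8.09 CPM at 6 weeks, with a difference of -1.27 (unadjusted p = 0.00055, adjusted p = 0.087). Rnf213, a ubiquitin ligase that coats bacteria, had 181 to 235 CPM and 260 to 582 CPM at 2 weeks, then 182 to 207 CPM and 129 to 138 CPM at 6 weeks, with a difference of -1.40 (unadjusted p = 0.00068, adjusted p = 0.097). None of the 3 differences passed the adjusted test. In each of the 3 genes library 3134 held the highest value of the 75 Gy libraries at 2 weeks. Without it the log2 fold changes at 2 weeks after 75 Gy were 0.97 for F830016B08Rik, 0.29 for 9930111J21Rik2 and 0.44 for Rnf213. None of these was called (adjusted p = 0.071, 0.37 and 0.095, edgeR). No group held more than 3 libraries, so single libraries were not tested as outliers.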

How the results depend on the processing

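At 2 weeks after 75 Gy the 6 called members became 1 when only the groups compared were fitted, and 1 to 7 with single libraries left out, being 1 without library 3134 and 3 without library 3127 or 3128. The count of 0 at 2 weeks after 65 Gy became 1 with no fold limit (Iigp1) and stayed 0 (range 0 to 0) with single libraries left out. At 6 weeks after 75 Gy the count of 1 ran from 0 (without library 3135 or 3142) to 2 (without 3141). At 6 weeks after 65 Gy the 0 became 1, Iigp1, with upper-quartile factors, with at least 10 counts in every library or with only the groups compared, and ran from 0 to 1 with libraries left out, being 1 without 3132 or 3141. The 2 members called between the times at 75 Gy became 0 with only the groups compared and ran from 0 (without 3134, 3141 or 3143) to 5 (without 3132), being 1 without 3142. The 75 Gy interaction gave 3 members by unadjusted p with the fold limit, against 0.

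Values that changed sign were of members not called in that comparison. For Gbp7 at 2 weeks after 65 Gy (-0.0016) they were 0.0062 with upper-quartile factors, 0.0098 with no filter, 0.0035 with at least 10 counts in every library and 0.0097 with only the groups compared, and -0.099 to 0.14 with libraries left out. For Irgm2 at 6 weeks after 65 Gy they were 0.0023 with upper-quartile factors, 0.0066 with only the groups compared, and -0.51 to 0.36 with libraries left out. Leaving out libraries gave -0.021 to 0.54 for Gbp7 at 2 weeks after 75 Gy, -0.24 to 0.11 for Gbp4 at 2 weeks after 65 Gy, -0.31 to 0.059 for Igtp at 6 weeks after 75 Gy, and, at 6 weeks after 65 Gy, -0.084 to 0.20 for Gbp3, -0.045 to 0.83 for Gbp5 and -0.22 to 0.54 for Igtp. Of the members' values under alternatives, 1180 kept their direction and side of the threshold, 29 were no longer called, 16 became called and 25 changed sign. The cause of these changes was not tested.

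Over all genes, 1707 calls at 2 weeks after 75 Gy became 834 with only the groups compared, 4922 with no fold limit and 1097 without library 3134. At 2 weeks after 65 Gy 960 became 1560 by unadjusted p and 2422 with no fold limit. At 6 weeks 2297 became 7935 with no fold limit after 75 Gy, and 1164 became 3234 with no fold limit, 604 without library 3138 and 743 without library 3140 after 65 Gy. With 1 library left in that group, it is assumed to vary like the others. Between doses DESeq2 called 7 and 14 genes against 0. The 75 Gy interaction gave 56 genes in edgeR and 301 in DESeq2. No paired analysis was possible because library numbers are unique and shared by no other group.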
